A study of Mus musculus with 4 samples.

Results

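Erythropoietin (Epo), its receptor (Epor), the signal transducers below the receptor (Jak2, Stat3, Stat5a, Stat5b) and the oxygen-sensing genes around them (Hif1a, Epas1, Egln1, Vegfa) were followed in mouse brain with and without a conditional knockout of Wt1. These 10 genes were chosen by name, from 22414 genes with a row in either of 2 deposited count tables. All 10 had a row in the table of the first pair of libraries and 9 had one in the table of the second. In these 9 no difference between the genotypes passed the test across all genes. Epor came out highest in Wt1_CKO relative to Wt1_flfl, by a log2 fold change of 0.49 that did not pass, and Epo was close to the limit of detection.

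RNA was taken from brain at embryonic day 13 on a C57BL/6 background, and 2 groups of 2 samples each were compared. The controls, Wt1_flfl, carried floxed alleles of Wt1 (Wt1fl/fl) and were also labelled WT. The other group, Wt1_CKO, was labelled as the Wt1 conditional knockout (Wt1CKO). The Wt1 protein binds DNA through zinc fingers and regulates transcription, and the title of the study concerns neural progenitors. The labels name neither the Cre line nor the part of the brain, and do not say whether the samples of a group came from separate animals. The p-values therefore measure only the spread between these samples, which for Wt1_flfl may be technical. The 2 Wt1_CKO libraries differed in Xist (4 and 16472 counts, replicate 1 first), so they were not repeats of 1 RNA sample.

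Each deposited table holds 1 library of each genotype with the same replicate number, called pair 1 and pair 2 here. The libraries held 16219310 to 17704698 listed counts. Marker genes of neural progenitors (8 genes) summed to between 2752 and 3247 counts per 1000000 (CPM), and those of neurons (8 genes) to between 5251 and 6173 CPM. Xist, the RNA of X inactivation, was at 4 counts in the first Wt1_CKO library and 13086 to 16472 in the other libraries. None of the 10 genes lies on a sex chromosome, but whether the Xist difference bears on them was not tested. In pair 1 this difference coincides with genotype, and the 2 cannot be told apart there. Transcripts of the targeted gene were not analysed here, and the genotypes rest on the labels alone.

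Erythropoietin is a glycoprotein hormone that keeps red cell precursors alive, and it has also been studied as a survival and growth signal for neural cells. Its receptor has no enzymatic activity of its own. It works through the attached kinase JAK2, which phosphorylates STAT5 and, in some cells, STAT3, and these move to the nucleus to switch on survival genes. The Epo gene is itself a classic target of the hypoxia-inducible factors. In oxygen, the prolyl hydroxylase PHD2, the product of Egln1, marks HIF-1α (from Hif1a) and HIF-2α (from Epas1) for destruction. When oxygen falls both are stable, and they raise genes such as Vegfa, the main growth signal for vessels. Much of this control acts on protein, which RNA counts do not show.

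Promoter sequences of 9 of the 10 genes were found in the RefSeq table (GRCm38.p6), and the ones printed here are shown because they hold the short motifs of the factors that the pathway uses. The Epor sequence is the 250 bases before the RefSeq start, on the minus strand at chr9:21963577-21963826. Its capitals mark the letters TTATCT, the reverse complement of AGATAA, a site for the GATA factors of red cells and other lineages, which begin 54 bases before the start.
Epor promoter: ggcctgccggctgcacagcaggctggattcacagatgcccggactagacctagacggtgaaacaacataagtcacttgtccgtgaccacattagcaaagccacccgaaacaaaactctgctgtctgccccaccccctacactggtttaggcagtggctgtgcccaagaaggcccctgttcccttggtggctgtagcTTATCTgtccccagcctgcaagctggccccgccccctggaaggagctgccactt
Short windows of Egln1 (chr8:124949308-124949332, minus strand) and Hif1a (chr12:73907723-73907747 and chr12:73907787-73907811, plus strand) hold ACGTG, the core that hypoxia-inducible factors bind, in capitals. It begins 68 bases before the RefSeq start of Egln1, and 134 and 70 bases before that of Hif1a. These starts lie inside the gene models given below, which begin at 124949324 for Egln1 and 73901375 for Hif1a. The matches therefore lie within those models as well.
Egln1 window: gccgtggtgtACGTGcagcgcgcgc
Hif1a first window: acagacaagcACGTGagcggggcag
Hif1a second window: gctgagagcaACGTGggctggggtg
Searched on both strands, ACGTG was found in 3 of the 12 windows that these 9 genes have (those of Egln1 and Hif1a and, at a second start inside the gene, 1 of Vegfa), and in 19.6% of all 32851 windows of 300 bases. AGATAA was found in 2 of the 12, 1 each of Epor and Vegfa, against 11.2% of all windows. TTCNNNGAA, the letters of a STAT site, was found in 0 of the 12, against 8.30% of all windows. A match describes letters in a window and is not evidence of binding.

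The ligand came first. Epo (ENSMUSG00000029711, chromosome 5, 137483020 to 137533242, minus strand, GRCm38) gave 6 counts in the Wt1_flfl library of pair 1 and 0 in the Wt1_CKO library. Epo had no row for pair 2, and the lowest total over the 2 libraries that either table lists is 2 counts. Its total over the 2 libraries of pair 2 was therefore under 2. The 6 counts stand for 0.374 CPM, with a 95% Poisson interval from 0.137 to 0.813 CPM, and a count of 0 allows up to 0.169 CPM (3 counts). Pair 1 sets 1 library beside 1 library, so the spread between samples of a genotype was not estimated for Epo. With under 2 counts, Wt1_flfl replicate 2 nevertheless lay below the 6 counts of Wt1_flfl replicate 1. The intervals cover counting error only, since PCR copies of 1 molecule cannot be told from separate molecules. The authors' deposited table for pair 1 marks Epo as lower, with a log2 value of -3.71, a p of 0.0166 and an adjusted p of 0.0481, after a count of 0 had been entered as 0.5. Epo was 1 of 10 members so marked in pair 1, where the mark covers 3.20% of all genes listed. In pair 2 it was given to 0 of 9, against 3.19% of all genes. Each of these comparisons is of 1 library with 1 library. The gene model is long because 1 of its transcripts starts at the exons of Gnb2, a G protein subunit gene on the same strand, with which it shares 104 exon bases, or 12.2% of its exon length.

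Epor (ENSMUSG00000006235, chromosome 9, 21958897 to 21963506, minus strand) encodes the receptor. It had 30 counts in each Wt1_flfl library, and 46 and 43 counts in Wt1_CKO replicates 1 and 2. As CPM these were 1.87 and 1.75 in Wt1_flfl and 2.59 and 2.50 in Wt1_CKO. Both Wt1_CKO libraries thus stood above both Wt1_flfl libraries. That pattern is common in these data: 13.4% of the 15933 genes tested showed it, and 13.5% showed the reverse. The log2 fold change was 0.49, with an unadjusted p of 0.181 and an adjusted p of 1 by edgeR's quasi-likelihood test. Counting alone gives each library a coefficient of variation of 14.7% to 18.3%. The ratio of Wt1_CKO to Wt1_flfl was 1.38 in pair 1, with an exact 95% counting interval from 0.855 to 2.27, and 1.42 in pair 2, with an interval from 0.873 to 2.35. The interval of the fold from limma-voom, which includes the spread between samples, ran from 0.818 to 2.39. These data therefore neither show a rise of Epor nor bound it below a doubling.

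In bulk tissue, fewer cells of a type and less RNA per cell cannot be told apart, and Epor is known above all from red cell precursors and also from vessel cells. Erythroid markers (15 of 18 genes summed, none of them at 0) gave 977 CPM in Wt1_flfl replicate 1 and 919 in Wt1_CKO replicate 1. In replicate 2 the sums were 1870 and 1819 CPM in the same order. The sums were higher in both libraries of pair 2, and their ratios of Wt1_CKO to Wt1_flfl were 0.940 in pair 1 and 0.972 in pair 2. Single markers differed more than the sums: over the 13 that were tested, the median log2 difference was -0.58 in pair 1 and 0.13 in pair 2, and 10 of the 13 went opposite ways in the 2 pairs. The part of these cells in the Epor value was not tested. Hbb-y, an embryonic globin, was the most abundant of these markers, with 423 and 849 CPM in Wt1_flfl replicates 1 and 2 and 360 and 974 CPM in Wt1_CKO. Hba-x, another embryonic globin, had 75.1 and 287 CPM against 45.4 and 326 CPM, and Hba-a1, an adult one, 216 and 457 CPM against 257 and 285 CPM. Klf1, a red cell transcription factor, had 7 to 11 counts in each library, below the filter for testing. Endothelial markers (13 genes) summed to 186 and 198 CPM in Wt1_flfl and 167 and 186 CPM in Wt1_CKO, replicate 1 first. Choroid plexus markers (6 of 7 genes) varied most, at 23.9 and 49.6 CPM in Wt1_flfl and 60.8 and 26.8 CPM in Wt1_CKO. Pericyte markers (10 genes), listed because pericytes can make Epo in the adult brain and kidney, summed to between 189 and 209 CPM in the 4 libraries.

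**Figure D1:**
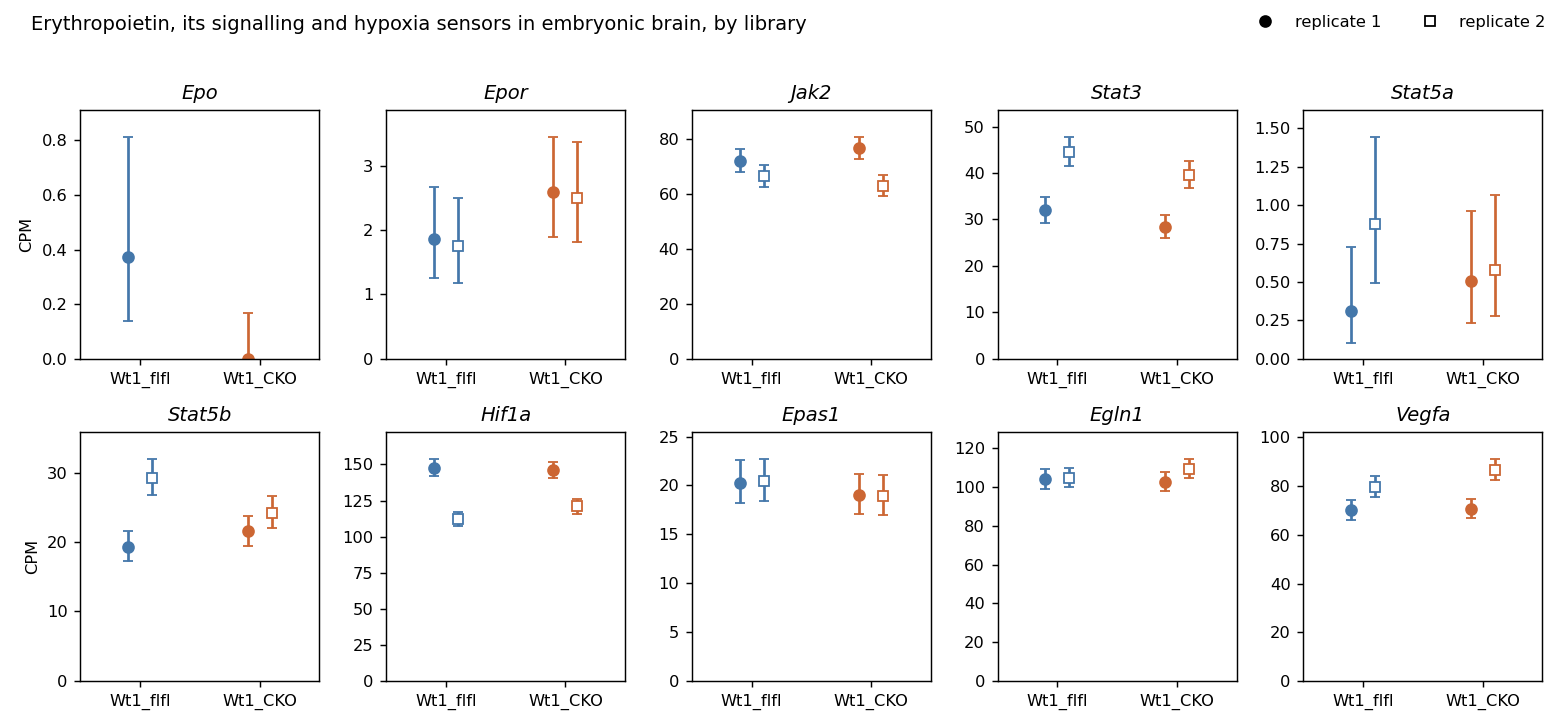
Level of each gene in CPM (counts per 1000000, linear axes from 0) in the 2 Wt1_flfl and 2 Wt1_CKO libraries; bars are 95% Poisson intervals of each count (for 0 counts, up to 3 counts), and Epo is shown for pair 1 only. Both Wt1_CKO libraries lie above both Wt1_flfl libraries for Epor and below them for Epas1, while for Stat3, Hif1a and Vegfa the replicate numbers lie further apart than the genotypes.

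Jak2 (ENSMUSG00000024789, chromosome 19, 29251828 to 29313080, plus strand) encodes the kinase that the receptor carries. It had 71.8 and 66.3 CPM in Wt1_flfl replicates 1 and 2, and 76.4 and 62.8 CPM in Wt1_CKO. The Wt1_CKO libraries were the highest and the lowest of the 4, so the groups overlapped. Its log2 fold change was 0.01 (limma-voom 95% interval of the fold 0.801 to 1.26), and edgeR's unadjusted p was 0.929.

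Stat3 (ENSMUSG00000004040, chromosome 11, 100885098 to 100939540, minus strand), which carries signals of many cytokines and in embryonic brain is tied to glial fate, had 31.9 and 44.5 CPM in Wt1_flfl replicates 1 and 2. In Wt1_CKO it had 28.3 and 39.6 CPM. It was lower in Wt1_CKO by a similar step in both pairs, with log2 differences of -0.17 in each. The replicate numbers stood further apart, by 0.48 on the log2 scale in each genotype, so the groups overlapped. The log2 fold change of -0.17 had an unadjusted edgeR p of 0.465, and the limma-voom interval of the fold ran from 0.610 to 1.28. Without Wt1_flfl replicate 2 the log2 value was 0.09, and without Wt1_CKO replicate 1 it was 0.05. Leaving out 1 library unbalances the replicate numbers, which for Stat3 differ by more than the genotypes do.

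Stat5a and Stat5b are neighbours of Stat3 on chromosome 11 and encode the main transducers of the erythropoietin receptor. Stat5b (ENSMUSG00000020919, 100780731 to 100850724, minus strand) had 19.3 and 29.3 CPM in Wt1_flfl replicates 1 and 2 and 21.5 and 24.2 CPM in Wt1_CKO. Wt1_flfl replicate 2 was the highest library and Wt1_flfl replicate 1 the lowest. Stat5b was thus higher in Wt1_CKO in pair 1 (log2 0.16) and lower in pair 2 (log2 -0.27). The combined log2 fold change was -0.09, with an unadjusted edgeR p of 0.704 and a limma-voom interval of the fold from 0.662 to 1.38. Without Wt1_flfl replicate 2 it was 0.24. The authors' deposited table for pair 2 gives Stat5b an adjusted p of 0.0259, and that for pair 1 gives 0.182.

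Stat5a (ENSMUSG00000004043, 100859351 to 100885169, plus strand) was near the limit of the counts, with 5 and 15 counts in Wt1_flfl replicates 1 and 2 and 9 and 10 counts in Wt1_CKO. These are 0.311 and 0.877 CPM, and 0.506 and 0.581 CPM. The Wt1_flfl libraries were the lowest and the highest. For Stat5a the log2 fold change was -0.14, with an unadjusted edgeR p of 0.840 and a limma-voom interval of the fold from 0.354 to 2.90. It was 0.79 without Wt1_flfl replicate 2 and 0.02 with limma-voom. Per kilobase of exon, Stat5b stood at a mean of 4.26 CPM and Stat5a at 0.0797 CPM over the 4 libraries, with no overlap between the libraries' ranges.

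The low Stat5a counts are set beside the sequences, since the 2 genes are close copies and a read that falls in a shared stretch names neither. In the GENCODE vM21 coding sequences, 90.7% of 2294 aligned bases were identical. The longest identical run was 324 bases, from coding base 571 to 894 in both, counted from 1 at the start codon. The first 100 bases of that run, in 1 exon of each gene (chr11:100874023-100874122 in Stat5a, plus strand, and chr11:100798602-100798701 in Stat5b, minus strand), read the same in both.
Stat5a and Stat5b shared: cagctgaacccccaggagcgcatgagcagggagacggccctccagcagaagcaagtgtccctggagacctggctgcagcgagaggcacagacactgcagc
The stretch of 60 coding bases with the most differences, bases 85 to 144, is shown for contrast, with the 19 differing bases in capitals.
Stat5a 85 to 144: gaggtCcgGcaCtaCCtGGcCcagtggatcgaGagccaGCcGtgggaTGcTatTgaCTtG
Stat5b 85 to 144: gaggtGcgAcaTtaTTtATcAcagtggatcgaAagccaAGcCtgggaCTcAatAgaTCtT
Over whole transcripts, 8.21% of the 50-base words of Stat5a also occur in Stat5b, and 11.0% of those of Stat5b occur in Stat5a. How long the reads were, and how reads with several matches were treated, is not given in the sources used here, and the part of shared reads in either count was not tested. Stat5a also shares 72 exon bases with the end of Stat3 on the opposite strand.

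Hif1a (ENSMUSG00000021109, chromosome 12, 73901375 to 73947530, plus strand), the oxygen-regulated subunit of HIF-1, had 148 and 112 CPM in Wt1_flfl replicates 1 and 2. In Wt1_CKO it had 146 and 121 CPM. Both replicate 1 libraries stood above both replicate 2 libraries, and the genotypes overlapped. The log2 fold change between genotypes was 0.04, with an unadjusted edgeR p of 0.817 and a limma-voom interval of the fold from 0.785 to 1.36. Replicate 2 lay below replicate 1 by a log2 value of -0.40 in Wt1_flfl and -0.27 in Wt1_CKO. The authors' deposited table for pair 2 gives Hif1a an adjusted p of 0.0382 with a log2 value of 0.12, below the size it marks. With Stat5b, 2 of 9 members had an adjusted p under 0.05 in the authors' deposited table for pair 2, where 19.2% of all genes did. In pair 1, 1 of 10 did (Epo), where 23.3% of all genes did. Hif1a shares 330 exon bases with the antisense gene Gm15283 and 148 with Gm49321, so part of its exon length is not its own.

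Epas1 (ENSMUSG00000024140, chromosome 17, 86753907 to 86833410, plus strand) encodes HIF-2α, the subunit known for control of Epo and for its level in vessel cells. It had 20.3 and 20.5 CPM in Wt1_flfl replicates 1 and 2, and 19.0 and 18.9 CPM in Wt1_CKO. Both Wt1_CKO libraries stood just below both Wt1_flfl libraries. The log2 fold change was -0.10, with an unadjusted edgeR p of 0.517, and the limma-voom interval of the fold ran from 0.727 to 1.19. The libraries of a genotype lay closer together than counting error, whose coefficient of variation was 5.35% to 5.54% per library, so the narrow gap between them is no measure of precision. The sums of endothelial markers were also lower in Wt1_CKO within each pair, with ratios of 0.899 and 0.943. This was not particular to vessel cells. The sums of neuron markers (ratios 0.940 and 0.915), erythroid markers and pericyte markers were lower in each pair too. Those of neural progenitors, microglia and macrophages, meninges and choroid plexus went opposite ways in the 2 pairs. Of the 13 single endothelial markers, 4 were lower in both pairs, 1 was higher in both and 8 went opposite ways. Over all genes tested, 25.9% were lower in both pairs. The part of vessel cells in the Epas1 value was not tested.

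Egln1 (ENSMUSG00000031987, chromosome 8, 124908587 to 124949324, minus strand), the oxygen sensor itself, varied least between libraries among the well-counted genes. It had 104 and 105 CPM in Wt1_flfl replicates 1 and 2 and 103 and 109 CPM in Wt1_CKO. The groups overlapped. Between genotypes the log2 difference was 0.02, with an unadjusted edgeR p of 0.819. The limma-voom interval of the fold, 0.854 to 1.21, was the narrowest of the 9 tested genes.

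Vegfa (ENSMUSG00000023951, chromosome 17, 46016993 to 46032369, minus strand), the vessel growth factor and HIF target, had 70.1 and 79.6 CPM in Wt1_flfl replicates 1 and 2 and 70.7 and 86.6 CPM in Wt1_CKO. Replicate 2 was the higher library in both genotypes, and the genotypes overlapped. Its log2 difference was 0.01 in pair 1, 0.12 in pair 2 and 0.07 in the fit of all libraries, with an unadjusted edgeR p of 0.626 and a limma-voom interval of the fold from 0.826 to 1.33. Leaving out Wt1_flfl replicate 1 gave -0.016, and leaving out Wt1_CKO replicate 2 gave -0.083.

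**Figure D2:**
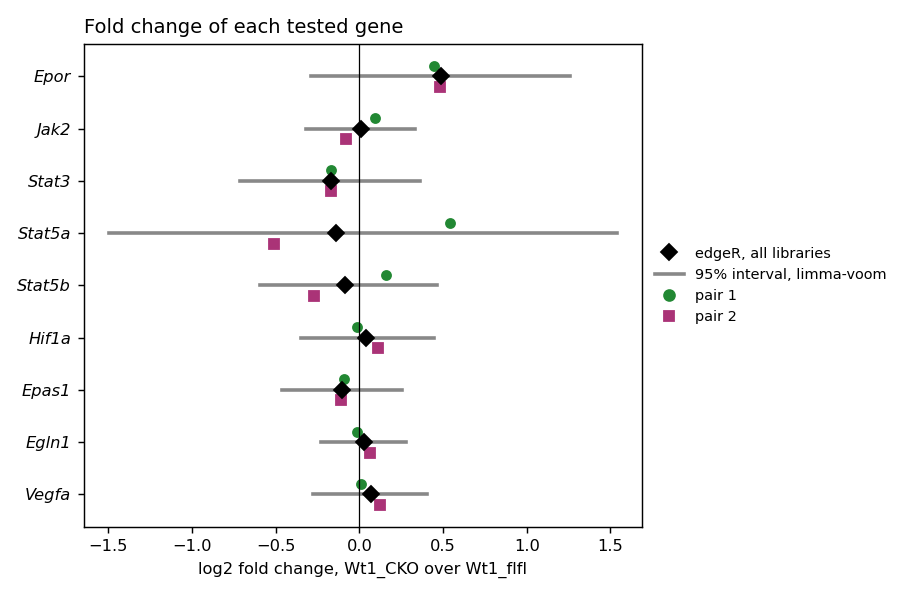
Log2 fold change of Wt1_CKO over Wt1_flfl for the 9 tested genes: diamonds are edgeR's estimate over all 4 libraries, lines the 95% intervals of limma-voom, circles pair 1 and squares pair 2. Each interval includes 0; the 2 pairs lie together for Epor, Stat3 and Epas1 and apart for Stat5a and Stat5b.

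Of the 9 tested genes, 0 passed edgeR's quasi-likelihood test at an adjusted p of 0.05, and 0 had an unadjusted p under 0.05. DESeq2 and limma-voom also called 0 of them. Across all 15933 genes, 1 passed, or 0.00628%, and 249 had an unadjusted p under 0.05, or 1.56%. A count of 0 of 9 is what that background leads to, and it says nothing particular of these genes. Their median log2 fold change was 0.01, beside 0.01 over all genes tested. The genotypes did not overlap for 2 of the 9, Epor above and Epas1 below, where 26.9% of all genes tested showed 1 or the other order.

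The replicate numbers separated more of these genes than the genotypes did. In 7 of the 9, both libraries of 1 replicate number stood above both of the other, which 49.7% of all genes tested also did. Stat3, Stat5a, Stat5b, Egln1 and Vegfa were higher in replicate 2, and Jak2 and Hif1a were lower. A gene cannot separate by both, and the remaining pair, Epor and Epas1, are those that separated by genotype. The erythroid marker sums were also higher in replicate 2, and their part in these differences was not tested. What the replicate numbers stand for is not given in the labels.

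**Figure D3:**
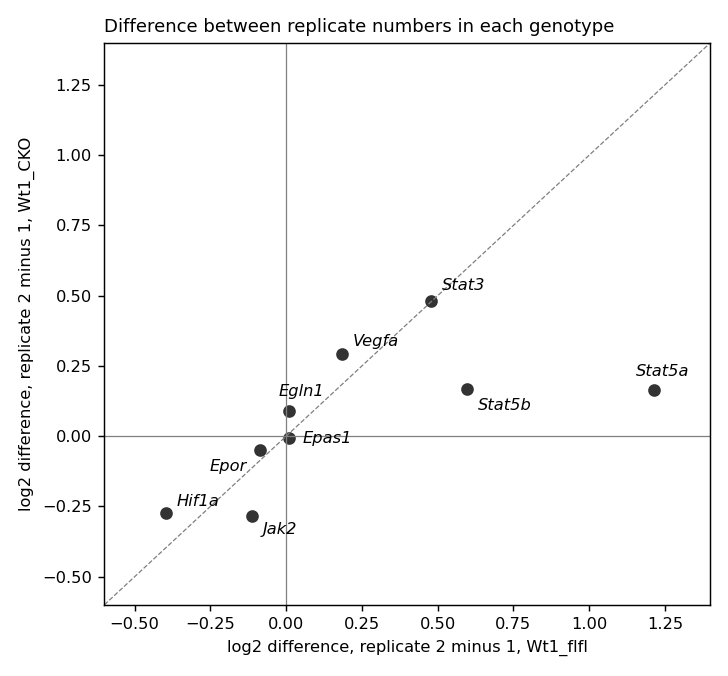
Log2 difference of replicate 2 minus replicate 1 in Wt1_flfl (x axis) and in Wt1_CKO (y axis) for each tested gene; the dashed line marks equal differences. Stat3 lies at 0.48 on both axes and Hif1a at -0.40 and -0.27, while Epor and Epas1 lie near 0.

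The order of levels between genes was read only per kilobase of exon, taking all annotated exons of a gene as its length. Egln1 led with a mean of 29.3 CPM per kilobase (28.6 to 30.4 over the 4 libraries). Hif1a followed with 22.4 (19.0 to 25.1) and Vegfa with 17.9 (16.4 to 20.2), and these ranges overlapped each other. Jak2 came next with 13.8 (12.5 to 15.2). Stat5b, Stat3 and Epas1, with means of 4.26, 3.79 and 3.52, overlapped as neighbours. Epor stood below them at 1.09 (0.881 to 1.30). Epo, at 0.437 and 0 in its 2 libraries, overlapped the range of Stat5a, 0.0437 to 0.123. At the level of RNA, the sensor and HIF-1α transcripts of this tissue were thus many times more abundant than those of the ligand and its receptor.

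The other genes of the pathway were described by lists, none of which had a member that passed. Of 16 further genes of oxygen sensing and HIF control, 16 were tested, with 6 higher and 7 lower in both pairs and a median log2 fold change of -0.01. Over all genes tested, 27.0% were higher in both pairs and 25.9% lower. Cited2, which competes with HIF-1α for the coactivators p300 and CBP, had 107 and 92.6 CPM in Wt1_flfl and 83.2 and 75.1 CPM in Wt1_CKO. Its log2 fold change of -0.33 had an unadjusted edgeR p of 0.0312 and an adjusted p of 1. Ube2d1, a ubiquitin-conjugating enzyme, had 185 and 186 CPM in Wt1_flfl and 159 and 164 CPM in Wt1_CKO (unadjusted edgeR p 0.0949). Elob, a partner of VHL, had 166 and 148 CPM against 127 and 146 CPM (unadjusted edgeR p 0.145). Vhl, which binds hydroxylated HIF for destruction, had 66.6 and 60.5 CPM against 74.4 and 69.5 CPM (unadjusted edgeR p 0.160). For these 4 genes, 3 lower and 1 higher, the groups did not overlap, but they were named for the smallest p of the list. Over all 16, both Wt1_CKO libraries lay above both Wt1_flfl libraries for 2 genes and below them for 3. Of all genes tested, 13.4% lay above in this way and 13.5% below.

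Glycolysis genes that HIF is known to induce gave a median log2 fold change of 0.04 over 19 tested, with 5 higher and 4 lower in both pairs. The median was -0.02 in pair 1 and 0.14 in pair 2. Gpi1, the second enzyme of glycolysis, had 224 and 209 CPM in Wt1_flfl and 177 and 183 CPM in Wt1_CKO (log2 -0.26, unadjusted edgeR p 0.0457, adjusted p 1). Aldoa, an aldolase, had 237 and 202 CPM against 191 and 187 CPM (unadjusted edgeR p 0.123). Pdk1, a kinase that inhibits pyruvate dehydrogenase and rises in hypoxia, lay the other way, with 26.0 and 21.9 CPM against 28.3 and 27.2 CPM. Slc2a1, the glucose transporter of the blood-brain barrier, had 76.8 and 84.1 CPM against 66.4 and 78.5 CPM. Among 24 other tested HIF targets the median was 0.03, with 7 higher and 5 lower in both pairs. Car12, a carbonic anhydrase, had 1.31 and 1.69 CPM in Wt1_flfl and 2.47 and 2.50 CPM in Wt1_CKO (log2 0.72, unadjusted edgeR p 0.0813). Ak4, an adenylate kinase of mitochondria, had 13.6 and 11.8 CPM against 16.8 and 15.3 CPM (unadjusted edgeR p 0.112). P4ha2, a collagen prolyl hydroxylase, had 4.80 and 5.67 CPM against 6.52 and 6.56 CPM. Plod2, a collagen lysyl hydroxylase, had a log2 fold change of 0.27 (unadjusted edgeR p 0.235), with groups that overlapped. Car9, the best known hypoxia marker of that family, had only 2 to 5 counts a library and was not tested.

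The lists below the receptor were read the same way. The other JAK and STAT genes (7 tested) had a median of 0.07, with 2 higher and 1 lower in both pairs. The genotypes overlapped for Stat6 (2.05 and 4.38 CPM in Wt1_flfl, 2.36 and 2.85 CPM in Wt1_CKO), Stat2 (28.8 and 32.2 against 29.2 and 36.3 CPM), Stat4 (1.31 and 0.935 against 1.07 and 1.68 CPM) and Jak3 (4.36 and 5.32 against 4.05 and 4.65 CPM). The brakes on cytokine receptors (18 tested) had a median of 0.00, with 6 higher and 4 lower. Socs4, of the SOCS family of inhibitors, had 42.4 and 44.1 CPM in Wt1_flfl and 48.7 and 47.6 CPM in Wt1_CKO (unadjusted edgeR p 0.216). Socs1, of the same family, had 0.872 and 1.29 CPM against 0.393 and 0.929 CPM, and Socs7 88.1 and 108 CPM against 107 and 106 CPM. Ptpn11, which encodes the phosphatase SHP2, had 140 and 166 CPM against 152 and 182 CPM. Adaptors and kinases downstream (17 tested) had a median of -0.01, with 4 higher and 5 lower. For these 4 and 5 genes the genotypes also did not overlap. Of all genes tested, 13.4% lay above in this way and 13.5% below. The other JAK and STAT genes had 0 above and 0 below, and the brakes 1 and 1. The transcripts induced through STAT5 or STAT3 had 0 and 2. These counts were not tested. Mapk3, which encodes the kinase ERK1, had 147 and 150 CPM in Wt1_flfl and 130 and 121 CPM in Wt1_CKO (log2 -0.24, unadjusted edgeR p 0.0595). Irs2, an adaptor of insulin receptors, had 42.2 and 47.7 CPM against 39.1 and 37.7 CPM (unadjusted edgeR p 0.113). Gab1, a docking protein, had 43.1 and 42.4 CPM against 54.4 and 45.1 CPM. Vav1, an exchange factor of blood cells, had 0.996 and 0.351 CPM against 1.01 and 1.39 CPM. Transcripts induced through STAT5 or STAT3 (11 tested) had a median of -0.04, with 1 higher and 3 lower. Myc, a growth regulator, had 36.1 and 25.1 CPM in Wt1_flfl and 25.5 and 26.0 CPM in Wt1_CKO (unadjusted edgeR p 0.244). Erfe, a hormone of red cell precursors, had 0.685 and 0.760 CPM against 0.0562 and 0.697 CPM. Bcl6, a transcriptional repressor, had 4.42 and 2.63 CPM against 7.48 and 2.61 CPM. Bcl2l1, the survival gene through which erythropoietin protects red cell precursors, had 164 CPM in each Wt1_flfl library against 155 and 149 CPM in Wt1_CKO (log2 -0.11, unadjusted edgeR p 0.335).

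The other VEGF ligands and receptors (8 tested) had a median of -0.04, with 1 higher and 2 lower in both pairs. Kdr, the main receptor for Vegfa on vessels, had 26.0 and 31.2 CPM in Wt1_flfl and 23.8 and 26.3 CPM in Wt1_CKO (unadjusted edgeR p 0.262). Vegfb had 40.4 and 36.2 CPM against 34.3 and 35.4 CPM. Flt4, the receptor of lymphatic vessels, had 5.36 and 6.31 CPM against 5.45 and 5.11 CPM, and its ligand Vegfc 5.17 and 1.99 CPM against 5.51 and 3.02 CPM.

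**Figure D4:**
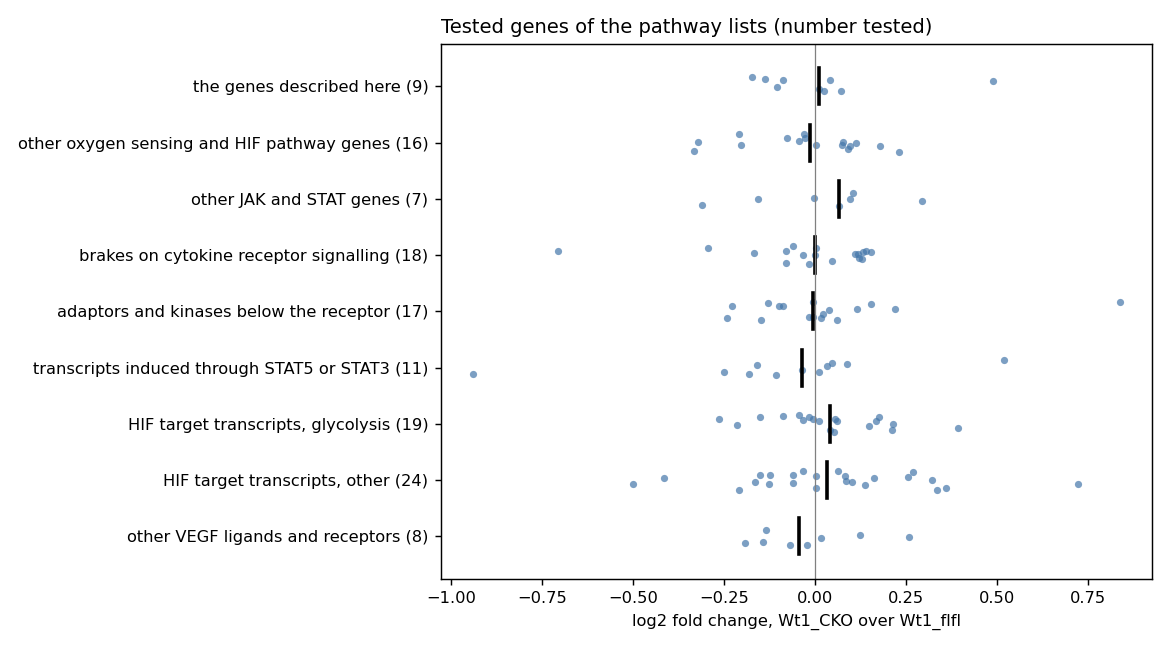
Log2 fold change of Wt1_CKO over Wt1_flfl for each tested gene (points, spread vertically at random) of the genes described here and of 8 lists of pathway genes, with the number tested in brackets; black bars are medians. The list medians lie between -0.04 and 0.07, and no point passed edgeR's test.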

How the data were processed

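RNA selected with oligo(dT), per the labels' protocols, was sequenced in 4 samples. Bowtie2 2.2.3, TopHat2 2.0.12, HTSeq 0.6.0 and mm9 are named, without roles, in the submitters' processing notes. Positions in the tables equalled GENCODE vM21 (GRCm38) for 92.1% of 22368 gene IDs found there, so GRCm38 is given. Per the file headers the authors deposited whole-number counts per Ensembl gene. The deposited CPM columns are counts over the library total with 0 entered as 0.5, and the deposited fold ratio and log2 columns derive from them. The deposited p-values compare 1 library with 1 library.

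Genes with a row in each table (19500) entered an edgeR 4.0.16 fit of the counts, run in R 4.3.3 (filterByExpr, minimum count 10, TMM, quasi-likelihood F test, Benjamini-Hochberg adjustment over 15933 genes, threshold 0.05). Genotype was the only term. Printed CPM are TMM-scaled. Pair differences use a prior count of 2. Alternatives were a replicate block, each library left out, DESeq2 1.42.0 and its size factors, limma-voom (limma 3.58.1, source of the intervals), other filters, no haemoglobin or mitochondrial genes, and genes of either table. The fit was also run on simulated counts, drawn without any difference between replicate numbers. That run does not show how the fit behaves where same-numbered libraries vary together. The members and lists were chosen with earlier results of these data known. Named list genes had the smallest p (up to 4 a list) or, for erythroid markers, the highest CPM, and Klf1 and Car9 were added after their values were seen.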

Additional observations from a re-analysis of the deposited data

How the results depend on the processing

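The number of genes called over all genes was 1 in the reported fit, 3 to 73 with 1 library left out, and 5 with DESeq2. Omitting the first or the second Wt1_flfl library gave 73 and 29, and omitting the first or the second Wt1_CKO library gave 3 and 7. It was 42 with the replicate number as a block. The labels tie no replicate number to an animal, litter or day, so the block gives the numbers a term without a known meaning. Same-numbered libraries did vary together: their deviations from the group means had a correlation of 0.28 across genes. The reported fit, without the block, counts such shared differences as spread within a genotype. Its edgeR test gave 249 genes an unadjusted p under 0.05, and the fit with the block gave 1146. For Stat3 the unadjusted edgeR p was 0.465 without the block and 0.161 with it. None of the 9 tested genes was called under any of these alternatives, and their smallest adjusted p was 0.834, for Stat3 with the block. Of 70 values of these genes under alternatives that keep all libraries, 69 kept their direction. The exception was Stat5a, at 0.020 with limma-voom. With 1 library left out, 25 of 36 values kept their direction. Over those fits the log2 fold change of Epor ran from 0.44 to 0.54 and that of Epas1 from -0.11 to -0.10. The others changed sign within their ranges, which were -0.14 to 0.15 for Jak2, -0.43 to 0.088 for Stat3, -0.68 to 0.79 for Stat5a, -0.36 to 0.24 for Stat5b, -0.14 to 0.25 for Hif1a, -0.020 to 0.069 for Egln1 and -0.083 to 0.21 for Vegfa. The cause was not tested. The medians of the 8 pathway lists lay between -0.14 and 0.14 with 1 library left out, and 15 of 32 such medians moved by more than the replicates' SD. Other HIF targets had the widest range, -0.099 to 0.14, and the other JAK and STAT genes ran from -0.067 to 0.072. Where 1 library is left out, its group has a single sample, assumed to vary like the other group. Stat5a fell below the filter with a minimum count of 30 and without haemoglobin and mitochondrial genes, and Epo was tested under none. Depth limits Epo, Stat5a and Epor.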
